A study of Mus musculus with 18 samples.

Results

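The genes described here are the Hox genes of the mouse, taken as every row of the gene count table whose symbol is Hoxa, Hoxb, Hoxc or Hoxd followed by a number, without the antisense transcripts of the clusters. They came to 39 genes of the 27179 rows in the table. RNA was sequenced from brain tissue of 18 wild-type (WT) mice of the C57BL/6J strain, a common inbred laboratory strain, 10 males and 8 females. The labels give the tissue as bulk brain, with the word whole in the sample descriptions, while the extraction protocol speaks of half-brain samples. Dosing began at 4 months of age and went on for 14 days, once a day by oral gavage, with glyphosate, the active compound of many weed killers, or with its carrier solution alone (vehicle). The vehicle group held 5 mice (2 males and 3 females), the 125 mg/kg group 5 (3 males and 2 females), the 250 mg/kg group 4 (3 males and 1 female) and the 500 mg/kg group 4 (2 males and 2 females). Each library came from a different mouse, and mice are named by their number in the labels (G9, for example).

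Hox genes encode transcription factors with a homeodomain, a protein fold that binds DNA. They lie in 4 clusters, and their order along a cluster matches the order of their expression domains along the body axis, so that genes of low number (paralogue groups 1 to 5) reach forward into the hindbrain while genes of higher number are read only further back, in the spinal cord and trunk. Forebrain and midbrain neurons use almost none of them, and neurons of the pons and medulla keep a part of the pattern in the adult, so the summed Hox level is used here as a measure of hindbrain tissue in a sample. In bulk RNA, fewer hindbrain cells and less Hox RNA per cell cannot be told apart.

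The total count per library ran from 3948096 to 11732885 with a median of 7789800, and 3 counts, the most that a count of 0 allows, corresponded to 0.279 to 0.740 CPM, counts scaled to library size, depending on the library. Hox RNA was scarce: the 39 genes together took 5403 counts in all 18 libraries, and 2858 of these (52.9%) were in the library of 1 vehicle mouse, G9. Gene lists that mark other brain regions also differed between libraries that carry the same tissue label, though by less than the Hox sum. The summed level of 12 cortical and hippocampal genes ran from 411.1 CPM in G4 to 6269 CPM in G29, and stood at 498.2 CPM in G9. Emx1, a transcription factor of the dorsal forebrain, was at 0.111 CPM in G9 and 0.129 CPM in G4 against a highest value of 14.5 CPM in G40. Fits and sums that G9 or G4 moved most are also given without that mouse.

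By cluster, the 11 Hoxa genes on chromosome 6 (GRCm38, bases 52155367 to 52260880) took 1437 counts, the 10 Hoxb genes on chromosome 11 (96194316 to 96368254) 2673, the 9 Hoxc genes on chromosome 15 (102921131 to 103036856) 613 and the 9 Hoxd genes on chromosome 2 (74668225 to 74765142) 680. The genes of a cluster lie close together and some annotated spans overlap. The span of Hoxa3 holds all of Hoxa4, Hoxa5 and Hoxa6, that of Hoxb3 holds Hoxb4, and that of Hoxd3 holds Hoxd4. How reads in shared exons were assigned is not given in the sources used here, so single levels of these overlapping genes are uncertain, while the sum over the family depends on it less.

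The promoter stretches of 3 genes are printed to show the DNA of genes on which the results turn: Hoxa2, the tested gene of the lowest paralogue number in its cluster, Hoxb4, from the middle of the range, and Hoxb8, from the part that set G9 apart. Each is the stretch of 250 bases before the annotated start in RefSeq (GRCm38.p6), written 5′ to 3′ on the gene's strand. Capitals mark a match to TGATNNAT, letters bound by Hox proteins together with their Pbx partners, in Hoxa2 and Hoxb8, and a match to AGGTCA, the letters of a retinoic acid receptor element, in Hoxb4. The positions are chr6:52164832-52165081 on the minus strand for Hoxa2, chr11:96318017-96318266 on the plus strand for Hoxb4 and chr11:96281655-96281904 on the plus strand for Hoxb8, whose stretch belongs to an annotated transcript start that lies inside the gene.
Hoxa2: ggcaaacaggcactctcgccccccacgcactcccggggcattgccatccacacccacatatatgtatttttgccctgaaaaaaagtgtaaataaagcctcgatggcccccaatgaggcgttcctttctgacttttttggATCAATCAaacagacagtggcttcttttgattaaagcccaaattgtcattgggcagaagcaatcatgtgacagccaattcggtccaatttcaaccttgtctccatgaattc
Hoxb4: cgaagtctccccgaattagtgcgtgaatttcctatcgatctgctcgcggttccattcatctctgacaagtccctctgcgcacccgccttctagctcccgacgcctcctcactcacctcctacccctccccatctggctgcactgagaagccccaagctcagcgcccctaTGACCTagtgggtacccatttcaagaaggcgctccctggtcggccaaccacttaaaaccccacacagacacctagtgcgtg
Hoxb8: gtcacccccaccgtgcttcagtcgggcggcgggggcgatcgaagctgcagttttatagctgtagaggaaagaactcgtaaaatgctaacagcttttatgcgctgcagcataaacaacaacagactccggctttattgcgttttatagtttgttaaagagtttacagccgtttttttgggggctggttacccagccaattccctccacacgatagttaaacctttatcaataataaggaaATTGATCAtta

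Both motifs were searched on both strands of 32851 such stretches. TGATNNAT stood in 4 of the 24 stretches of Hox genes (16.7%; those of Hoxa2, Hoxb1, Hoxb8 and Hoxd11) and in 7.68% of all stretches. AGGTCA stood in 6 of the 24 (25%; those of Hoxb4, Hoxc4, Hoxd10, Hoxd3, Hoxd4 and Hoxd8) and in 14.0% of all. The 24 stretches belong to 22 Hox genes, and a match describes the letters only.

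The summed Hox level differed 378.8-fold between the highest and the lowest of the 18 mice. Among vehicle mice it was 2.31 CPM in G1 (95% exact interval 1.29 to 3.81, from 15 counts), 4.73 in G5 (3.45 to 6.33), 11.2 in G15 (8.98 to 13.9), 27.97 in G18 (24.2 to 32.2) and 316.7 in G9 (305.2 to 328.6, from 2858 counts). At 125 mg/kg it was 0.836 CPM in G29, 0.921 in G25, 1.40 in G45, 4.39 in G40 and 11.4 in G34. The 3 lowest mice of the study were thus all in the 125 mg/kg group, and their levels rested on 9, 8 and 13 counts.

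At 250 mg/kg the summed level was 4.22 CPM in G64, 15.9 in G71, 29.6 in G49 and 57.7 in G66. At 500 mg/kg it was 8.66 CPM in G90, 17.1 in G87, 66.9 in G79 and 94.96 in G4. Every pair of groups overlapped. In the order of all 18 mice, G9 stood above G4, G4 above G79, G66 above G49, G18 above G87 and G90 above G5 with intervals that did not overlap, and the intervals of all other neighbours overlapped. The intervals cover counting error only.

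**Figure D1:**
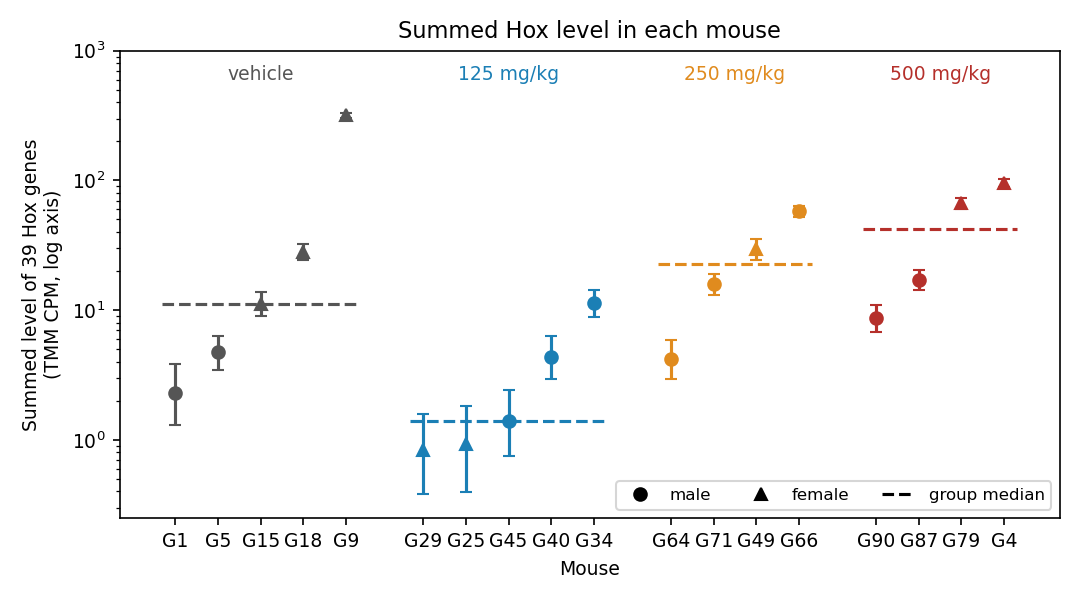
The summed level of 39 Hox genes in each mouse (CPM, log axis) by dose group, with 95% exact counting intervals, points marked by sex and a line at each group's median. Vehicle mouse G9 stands at 316.7 CPM, above G4 at 94.96, and the lowest points, under 1.5 CPM, are the 125 mg/kg mice G29, G25 and G45.

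The group mean was 72.6 ± 136.8 CPM (SD, n = 5) for vehicle. It was 3.79 ± 4.50 (n = 5) in mice given 125 mg/kg, 26.8 ± 23.0 (n = 4) in those given 250 mg/kg and 46.9 ± 41.1 (n = 4) in those given 500 mg/kg. The medians were 11.2, 1.40, 22.7 and 42.0 CPM. Without G9 the vehicle mean was 11.6 ± 11.6 CPM (n = 4). The difference between 500 mg/kg and vehicle changed sign with that mouse: the log2 ratio of the group means was -0.63 with G9, 2.02 without it, 0.88 with geometric means over all mice (31.9 against 17.3 CPM) and 1.42 without G9 and G4. No test was attached to this sum. The SD among the 5 vehicle mice was larger than any difference between group means.

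Single Hox genes repeated the pattern of the sum. Counts were 0 in all 18 mice for 10 genes, namely Hoxa13, Hoxb1, Hoxc8, Hoxc9, Hoxc10, Hoxc11, Hoxc12, Hoxd9, Hoxd10 and Hoxd12. Another 14 had a count in fewer than 9 mice and 175 counts together, 110 of them in G9, and none reached more than 10 counts in any other mouse. The remaining 15 had a count in at least 9 mice, and 12 of these passed the filter on low counts: Hoxa2, Hoxa3, Hoxa4, Hoxa5, Hoxb2, Hoxb3, Hoxb4, Hoxb5, Hoxc4, Hoxc5, Hoxd3 and Hoxd4, all from paralogue groups 2 to 5. All 12 were highest in G9, and 8 of them had their next highest value in G4. Hoxa3 and Hoxb4 did not pass the filter when G9 was left out, so their place among the 12 depended on that mouse. G9 exceeded the next mouse by 1.10-fold (Hoxa2) to 6.54-fold (Hoxa5), with a median of 2.69-fold. In G29 all 12 stood at 0, although this library was the deepest of the study, and in G25 and G45 8 and 7 of them were at 0.

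**Figure D2:**
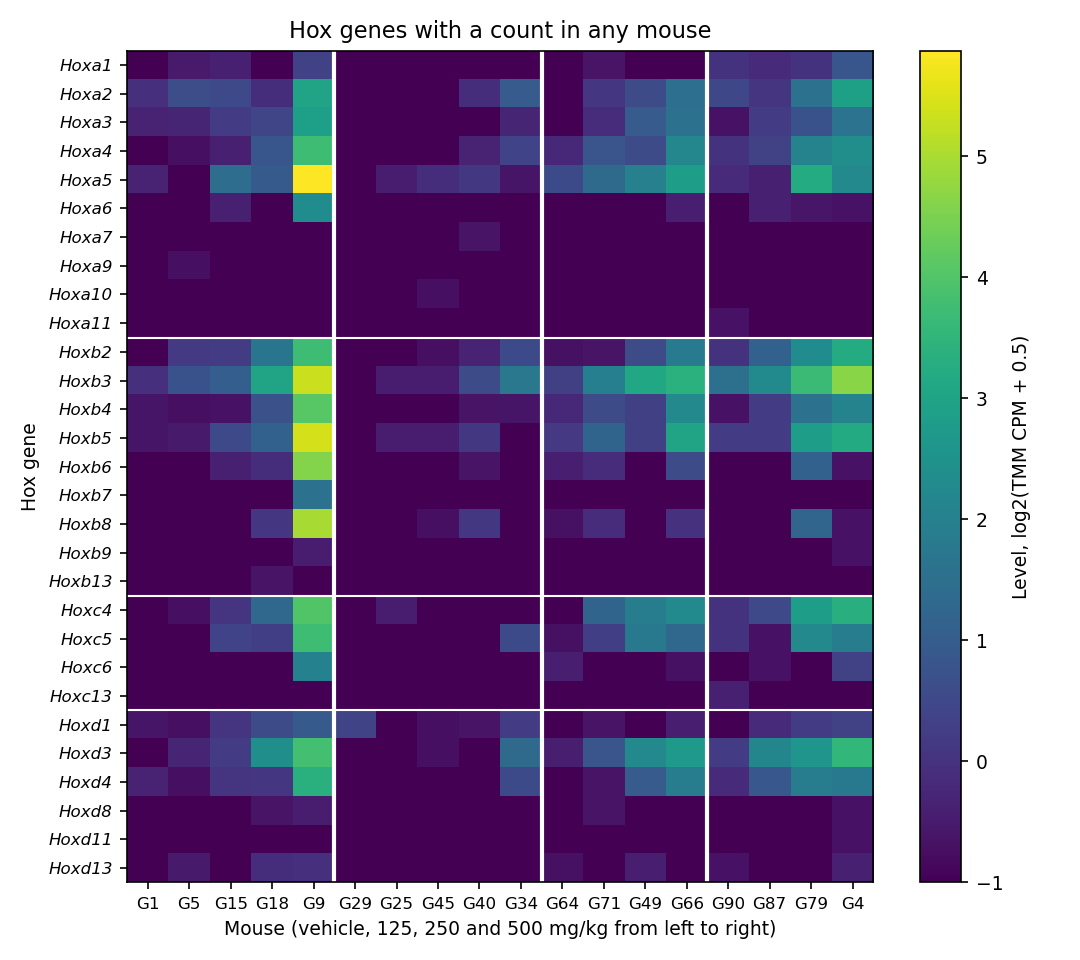
Heat map of log2(CPM + 0.5), on a colour scale from dark (0 CPM) to bright, for the Hox genes with a count in any mouse (rows, by cluster) in each mouse (columns, by dose group and within it by summed level). G9, the last vehicle column, is the brightest for all 12 genes that passed the filter and for Hoxb6 (23.5 CPM) and Hoxb8 (30.8 CPM), and the G29 column holds Hoxd1 alone.

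Per kilobase of exon, so that genes can be compared, the highest median level over the 18 mice was that of Hoxb3 (0.625 CPM per kb), a gene of hindbrain segments from the fifth on. Hoxa5 (0.413), Hoxa2 (0.410), the Hox gene that reaches furthest forward in the hindbrain, and Hoxa4 (0.407) came next. Lower medians, all in CPM per kb, were those of Hoxb5 (0.232), Hoxd3 (0.230), Hoxc4 (0.202), Hoxc5 (0.196), Hoxb2 (0.185), Hoxd4 (0.155), Hoxd1 (0.107), Hoxb4 (0.102) and Hoxa3 (0.0618). The order in G9 was another one, led by Hoxa5 (30.9 CPM per kb), Hoxb5 (15.4), Hoxb6 (11.96), Hoxb8 (11.7) and Hoxb3 (9.23).

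Hoxa2, which patterns the second segment of the hindbrain, was at 0.462, 1.05, 7.65, 0.926 and 0.428 CPM in vehicle mice G1, G5, G9, G15 and G18. At 125 mg/kg it was at 0 in G25, G29 and G45, 0.439 in G40 and 1.45 in G34. At 250 mg/kg it was at 0 in G64, 0.563 in G71, 0.987 in G49 and 2.34 in G66, and at 500 mg/kg at 0.526 in G87, 0.892 in G90, 2.51 in G79 and 6.94 in G4. G9 and G4 lay above all others, and G9 exceeded G4 by less for Hoxa2 than for any other tested Hox gene.

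Hoxb3, the Hox gene with the highest median level per length, was likewise highest in G9 and next in G4, over a wider range. The order of the other mice differed, with vehicle mouse G18 lowest of its group for Hoxa2 and next to G9 for Hoxb3. In vehicle mice it was at 0.462 CPM in G1, 1.16 in G5, 1.59 in G15, 7.56 in G18 and 39.2 in G9, and at 125 mg/kg at 0 in G29, 0.216 in G45, 0.230 in G25, 1.02 in G40 and 2.89 in G34. At 250 mg/kg it was at 0.723 in G64, 3.38 in G71, 8.14 in G49 and 9.96 in G66, and at 500 mg/kg at 2.42 in G90, 4.34 in G87, 12.4 in G79 and 24.4 in G4. Without G9 the vehicle mean was 2.69 ± 3.28 CPM (SD, n = 4), against 0.872 ± 1.19 (n = 5) in the 125 mg/kg mice, 5.55 ± 4.25 (n = 4) in the 250 mg/kg mice and 10.9 ± 9.998 (n = 4) at 500 mg/kg.

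Hoxa5, a gene of the caudal medulla and neck region, was the tested member most tied to G9, which held 70.2% of its counts. It was at 0 CPM in G5, 0.308 in G1, 1.43 in G18, 2.25 in G15 and 58.1 in G9 among vehicle mice, and at 0 in G29, 0.161 in G34, 0.230 in G25, 0.432 in G45 and 0.585 in G40 at 125 mg/kg. At 250 mg/kg it was at 0.965 in G64, 2.11 in G71, 3.45 in G49 and 6.64 in G66, and at 500 mg/kg at 0.263 in G87, 0.382 in G90, 4.24 in G4 and 8.88 in G79. For this gene G79, not G4, came after G9, and the 500 mg/kg group split into a low and a high pair of mice. Hoxb5, of the same paralogue group, was likewise at 42.9 CPM in G9 and between 0 and 8.74 CPM in the other mice.

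Among the rest of paralogue groups 3 and 4, Hoxd3 was at 13.6 CPM in G9 and 11.2 in G4, Hoxc4 at 15.5 and 9.51, and Hoxb4 at 16.6 and 3.73. Hoxd3 had the lowest share of its counts in G9 of these 3 (30.0%), and in vehicle mouse G18 it reached 4.85 CPM. Hoxd1, the paralogue group 1 gene seen in most mice (14 of 18), departed from the pattern. It was at 1.44 CPM in G9, 0.999 in G18, 0.836 in G29, 0.771 in G4 and 0.670 in G79. All 9 Hox counts of G29, the mouse with no other Hox RNA, were of Hoxd1, and the Spearman correlation of Hoxd1 with the sum of all other Hox genes was 0.461 over the 18 mice.

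The 12 tested genes varied together across mice. Over 66 pairs of them the median Spearman correlation across the 18 libraries was 0.840, with a range from 0.554 (Hoxa2 with Hoxa5) to 0.964. Without G9 the median was 0.809 and the lowest value 0.469. These values are descriptions, since the genes share libraries, clusters and in part exons.

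The paralogue groups that made up the Hox counts differed between mice. Compositions were compared in the 8 mice with at least 100 Hox counts. Paralogue groups 6 to 8, whose domains end in the spinal cord and the very end of the medulla, made up 20.5% of the Hox counts of G9 (95% exact interval 19.1 to 22.1). In the other 7 mice the share was 6.19% in G71 (2.53 to 12.3), 5.51% in G79, 4.08% in G18, 3.20% in G66, 2.31% in G87, 1.35% in G4 (0.651 to 2.47) and 0 in G49, where 0 of 120 counts allow a share of up to 3.03%. The interval of G9 lay above that of each other mouse.

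Hoxb8 accounted for 278 of the counts of paralogue groups 6 to 8 in G9 and Hoxb6 for 212, which were 90.6% and 87.6% of all their counts in the study. Hoxb8 was at 30.8 CPM in G9, at 1.84 in G79 and at or under 0.585 in all other mice. Hoxb6 was at 23.5 CPM in G9, at 1.68 in G79 and at or under 0.984 elsewhere. Hoxb7, picked here after its values were seen, had 22 counts, all in G9. The summed level of paralogue groups 6 to 8 in G9 was 17.6 times that of the next mouse, against 2.69 times for paralogue groups 1 to 5. Paralogue groups 9 to 12 were near absent everywhere, with 4, 1, 2 and 0 counts over all mice, and group 13 had 17 counts, of which 4 were in G9.

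The foremost genes, in contrast, had their lowest share among the 8 mice with at least 100 Hox counts in G9. Paralogue groups 1 to 3 made up 70.0% of the Hox counts of G87 (61.3 to 77.7), 62.2% of G18, 59.0% of G4 (55.4 to 62.6), 53.3% of G49, 41.6% of G66, 40.9% of G79, 38.1% of G71 and 26.0% of G9 (24.4 to 27.7). Paralogue group 5 ran from 6.15% in G87 (2.69 to 11.8) and 13.8% in G18 to 17.1% in G4 (14.4 to 19.96) and 35.9% in G9 (34.2 to 37.7). G4 and G9, the 2 mice with the most Hox RNA, thus differed in which Hox genes they held: G4 had the larger share of the foremost genes and G9 that of the hindmost. The Hoxb cluster took between 35.8% and 53.2% of the counts in all 8 mice, while the Hoxd share ran from 8.05% in G9 to 33.1% in G87.

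**Figure D3:**
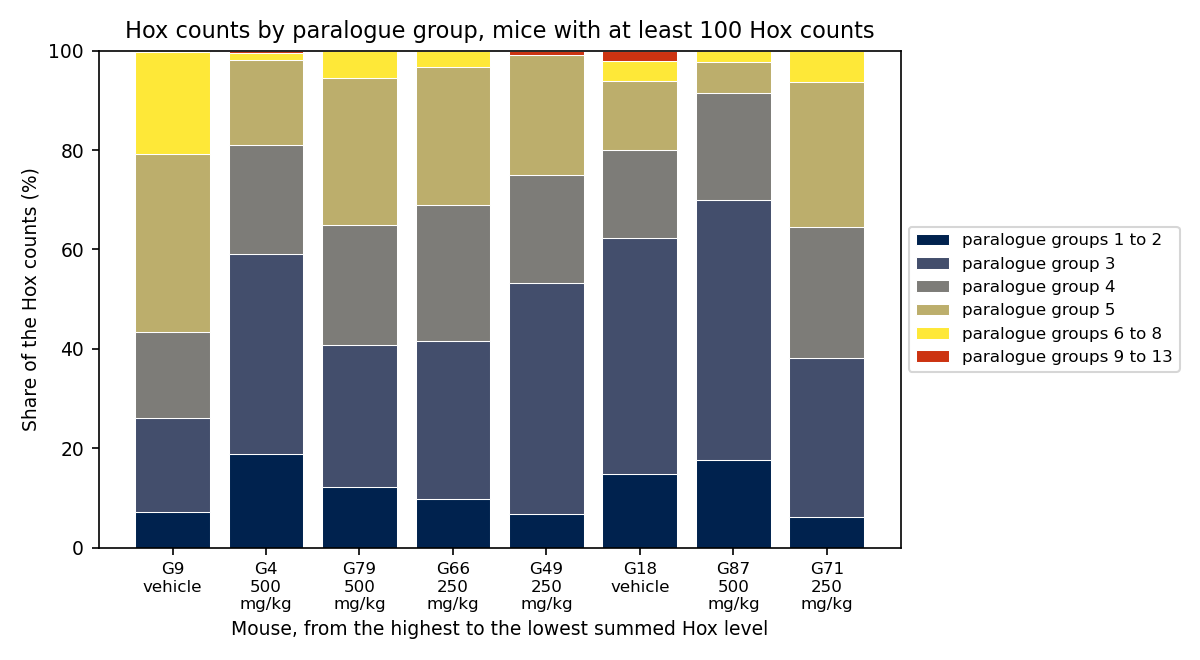
Share of each mouse's Hox counts (percent, bars from 0 to 100) taken by blocks of paralogue groups, for the 8 mice with at least 100 Hox counts. Paralogue groups 6 to 8 take 20.5% in G9 and between 0 and 6.19% in the others.

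To determine whether Hox levels went with the dose of glyphosate, a slope over dose with sex as a covariate was fitted to all 15863 genes that passed the filter, with edgeR's quasi-likelihood test and Benjamini-Hochberg adjustment. It is given as the log2 difference between 0 and 500 mg/kg. None of the 12 tested Hox genes passed an adjusted p of 0.05, where 0.29% of all genes did, and 0 had an unadjusted p under 0.05, against 13.2% of all genes. DESeq2 also called 0 Hox genes (1.48% of all genes), as did limma-voom (0.315% of all genes). In limma-voom 7 of the 12 had an unadjusted p under 0.05, but the share of all genes under that level was not counted there. The slopes fitted by edgeR were positive for 9 of the 12, with a median of 0.51 beside 0.01 over all genes tested, of which 51.2% had a positive slope.

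The slope was 1.29 for Hoxd3 (SE 1.08, adjusted p = 0.648, edgeR), the lowest adjusted p of the 12. It was 1.117 for Hoxc4 (SE 1.16), 0.90 for Hoxb3 (SE 0.99), 0.83 for Hoxb2, 0.64 for Hoxa2, 0.53 for Hoxd4, 0.48 for Hoxa4, 0.22 for Hoxc5 and 0.03 for Hoxa3. It was -0.20 for Hoxb4, -0.27 for Hoxb5 and -0.95 for Hoxa5 (SE 1.34). The standard errors were about as large as the slopes or larger, and no direction over dose stood clear of the spread between mice in this fit. In limma-voom on the same 18 mice the slopes were positive for 12 of 12 genes with a median of 2.68 (median SE 1.28). With the number that opens the sample titles as a block, an alternative chosen after seeing the data, 0 of the 12 slopes were positive. The median was -2.56 (median SE 2.15) and 0 genes were called (edgeR). In this fit 2 of the 12 had an unadjusted p under 0.05, and the share of all genes under that level was not counted. The labels do not say what the number in the titles stands for. Vehicle and dosed mice share it in 2 cases, G18 (27.97 CPM of summed Hox) with the 125 mg/kg mice G34, G40 and G45 (11.4, 4.39 and 1.40), and G9 and G15 (316.7 and 11.2) with the 500 mg/kg mice G87 and G90 (17.1 and 8.66).

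Of the mice left out one at a time, G9 moved the median slope most. Then 10 Hox genes passed the filter (Hoxa3 and Hoxb4 did not), the slopes ran from 2.20 for Hoxa2 to 3.27 for Hoxc4 (SE 1.14) with a median of 2.52, and 9 of the 10 had an unadjusted p under 0.05, against 17.3% of all genes in that fit. None was called, and the lowest adjusted p was 0.142 (edgeR, Hoxc4). Without both G9 and G4 the median slope was 2.47.

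**Figure D4:**
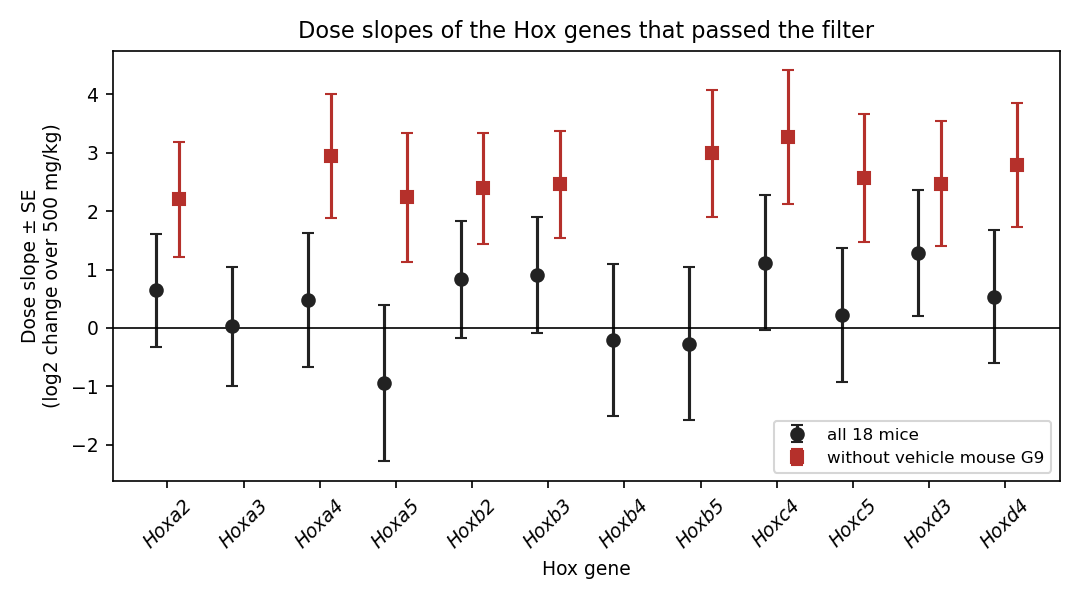
Fitted dose slope (log2 difference over 500 mg/kg, bars show 1 SE) of each tested Hox gene with all 18 mice and without vehicle mouse G9. With all mice the points lie between -0.95 and 1.29, and without G9 between 2.20 and 3.27.

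A test of any difference among the 4 groups called 0 of the 12 Hox genes (edgeR; 0.0441% of all genes called), with 5 at an unadjusted p under 0.05 (15% of all genes) and a lowest adjusted p of 0.188, that of Hoxc4. The same lowest value was 0.0525 with DESeq2 and 0.0667 without G9. Against vehicle, the 125 mg/kg group had lower fitted levels for 12 of 12 genes with a median log2 difference of -3.17. None of them was called at this dose by edgeR (0 called, 0% of all genes), while 9 had an unadjusted p under 0.05 (11.2% of all genes). Hoxb3 was at a log2 difference of -2.75 (SE 1.27, adjusted p = 0.438, edgeR). Hoxa3, Hoxb4 and Hoxc4 had only 2 counts each in the whole 125 mg/kg group, so no fold is given for them. Without G9 the median was -1.31 and 1 of 10 genes had an unadjusted p under 0.05 (8.77% of all genes).

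Against vehicle, edgeR called 0 Hox genes at 250 mg/kg (0% of all genes), with 0 at an unadjusted p under 0.05 (3.76% of all genes) and a median log2 difference of 0.41, positive for 10 of 12. Its sign was not stable: the median was -1.03 with 0 of 12 positive without the sex covariate, and -0.73 with 1 of 12 positive without G66. At 500 mg/kg it also called 0 (0.0189% of all genes), with 0 at an unadjusted p under 0.05 (11.6% of all genes), a median of 0.04 and a lowest adjusted p of 0.659. Without G9 these medians were 2.26 and 2.12, with 5 of 10 genes at an unadjusted p under 0.05 in each (3.84% and 14.5% of all genes), and still 0 called. Without that mouse the lowest adjusted p at 500 mg/kg was 0.196 (edgeR).

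The sexes were also compared, since sex is the covariate of the dose fit. G9 and G4, the 2 mice with the most Hox RNA, are both females. The summed Hox level was 12.8 ± 16.7 CPM (SD, n = 10) in males with a lowest value of 1.40, a median of 6.70 and a highest of 57.7, and 68.6 ± 105.5 (n = 8) in females with a lowest value of 0.836, a median of 28.8 and a highest of 316.7. Without G9 the female mean was 33.2 ± 35.5 (n = 7). The 12 tested genes were all lower in males in the fit with dose groups, with a median log2 difference of -1.86, and 0 were called (0.0441% of all genes called, edgeR), with a lowest adjusted p of 0.622. An unadjusted p under 0.05 was found for 6 of the 12, against 7.99% of all genes. Without G9 the median was -1.18 and 3 of 10 genes had an unadjusted p under 0.05 (5.56% of all genes). Without both G9 and G4 the median was -0.90, and the difference was positive for 1 of 10 genes.

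Partners and regulators of Hox genes were set beside the Hox level next. Of 9 TALE genes, which encode the Pbx, Meis and Pknox proteins that bind DNA beside Hox proteins, 0 passed the dose test and the median Spearman correlation with the summed Hox level over 18 mice was -0.24, with 4 of 9 positive. Their summed level, which differed only 2.14-fold between mice, had a correlation of -0.55 (Pearson) and -0.46 (Spearman) with the Hox sum, and of -0.20 (Pearson) without G9 and G29, the 2 mice farthest from the median Hox level. The one with the smallest p for the dose slope was Pknox2 (slope -0.66, SE 0.21, adjusted p = 0.185, edgeR). Meis1, named after its values were seen, stood apart with a correlation of 0.841 and a level of 6.50 CPM in G29 and 45.8 in G9.

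Of 14 genes that set Hox domains in the embryo or make, break down and read retinoic acid, 8 were tested, 0 were called and the median correlation was -0.13, with 3 of 8 positive. The sum of the 14, which differed 1.81-fold between mice, had a correlation of -0.67 (Pearson) and -0.61 (Spearman) with the Hox sum, and of -0.49 (Pearson) without G9 and G29. Cdx2 and Cdx4, activators of hindmost Hox genes in the embryo, were at 0 in all mice. Egr2, a regulator of Hoxa2 and Hoxb2 in the embryonic hindbrain and an activity-induced gene of adult forebrain neurons, ran from 1.16 CPM in G4 to 50.6 in G40, with a correlation of -0.50. Of 19 Polycomb and trithorax genes, which keep Hox genes off or on, 0 were called and the median correlation was -0.08 (for the sum, -0.29 Pearson and -0.21 Spearman), with Pcgf2 at a slope of -0.80 (SE 0.21, adjusted p = 0.102, edgeR). Their slopes had medians of -0.10, -0.31 and -0.08 for the TALE, upstream and Polycomb lists.

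Lists of genes that mark brain regions were set beside the Hox level. Of 21 genes of pons and medulla neurons, 19 were tested, and all 19 correlated positively with the summed Hox level (median Spearman 0.55, beside 0.044 over all 15851 other genes). The values ran from 0.003 (Tal1) to 0.946 (Slc6a5). The share of all genes with a positive or a negative correlation was not counted, here or for the other lists. None of the 19 was called for dose (0.29% of all genes). The median slope was 1.18, with 18 slopes positive and 7 at an unadjusted p under 0.05 (51.2% and 13.2% of all genes). Without G4 the median slope was 0.79, with 16 of 19 positive and 0 at an unadjusted p under 0.05. The summed level of this list ran from 10.01 CPM in G1 through a median of 99.0 to 665.3 in G4, with 232.3 in G9, and its correlation with the Hox sum was 0.69 (Pearson) and 0.65 (Spearman), or 0.60 (Pearson) without G9 and G29 and 0.64 (Pearson) without G4.

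Slc6a5, the glycine transporter of inhibitory neurons in the brainstem and spinal cord, followed the Hox sum most closely of 15851 other genes (Spearman 0.946). It was at 1.39 CPM in G1, 7.47 in G5, 25.7 in G9, 3.04 in G15 and 13.4 in G18 among vehicle mice, and at 0.576 in G25, 0 in G29, 2.09 in G34, 0.585 in G40 and 0.216 in G45 at 125 mg/kg. At 250 mg/kg it was at 9.87 in G49, 1.09 in G64, 17.5 in G66 and 4.36 in G71, and at 500 mg/kg at 70.5 in G4, 20.4 in G79, 15.9 in G87 and 9.68 in G90. Its dose slope was 2.04 (SE 0.87, adjusted p = 0.324, edgeR), which did not pass the threshold, and 1.39 without G4 (adjusted p = 0.719). The 125 mg/kg mice lay under 2.1 CPM and the 500 mg/kg mice above 9, and the vehicle mice, at 1.39 to 25.7, overlapped both. How many of all genes part these 2 dose groups was not counted.

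Within the hindbrain list, G9 and G4 were highest for different genes, picked here after their values were seen. Tlx3, a transcription factor of sensory relay neurons of the medulla, was highest in G9, at 9.42 CPM, with 0.129 in G4. Lbx1 and Pax2, which mark dorsal interneurons of the medulla and cord, were also highest in G9 (8.31 and 10.3 CPM). In G4 they were at 1.67 and 8.995 CPM, so that Pax2 differed little. Irx3 (28.9 CPM in G9 and 32.3 in G4) and Irx5 (12.6 and 11.7) were also close in these mice. Tph2 and Slc6a4, the serotonin enzyme and transporter of the raphe, were highest in G4 at 185.0 and 96.6 CPM, with 3.44 and 1.88 in G9, and Gata3, a factor of raphe neurons, was highest there too (27.1 CPM). Tph2 had the smallest p for dose in this list (slope 3.45, SE 1.15, adjusted p = 0.207, edgeR), and its slope was 0.29 without G4 (adjusted p = 0.957).

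The 12 cortical and hippocampal genes all correlated negatively with the Hox level (median Spearman -0.66, beside 0.044 over all other genes). None was called for dose and the median slope was -1.16. Positive slopes numbered 0 (51.2% of all genes), and 4 genes had an unadjusted p under 0.05 (13.2% of all genes). The smallest adjusted p among them was that of Mef2c, a neuronal transcription factor (slope -1.58, adjusted p = 0.296, edgeR). Without G4 the median slope was -0.75 and 0 had an unadjusted p under 0.05. Without G9 it was -1.40 with 12 of 12 at an unadjusted p under 0.05 (17.3% of all genes) and 0 called. The correlation of their sum with the Hox sum was -0.75 (Pearson) and -0.73 (Spearman), and -0.61 (Pearson) without G9 and G29 and -0.73 (Pearson) without G4. The 13 cerebellar genes all correlated positively (median Spearman 0.41, beside 0.044 over all other genes), with 0 called, 0 slopes positive and a median slope of -0.60. Their summed level was 148.2 CPM in G29, 4147 in G9 and 4341 in G49 but 317.4 in G4, so that a high Hox level came with a high cerebellar level in G9 and with a low one in G4. The Pearson correlation of the cerebellar sum with the Hox sum was 0.44, with 0.12 without G9 and G29 and 0.63 without G4.

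**Figure D5:**
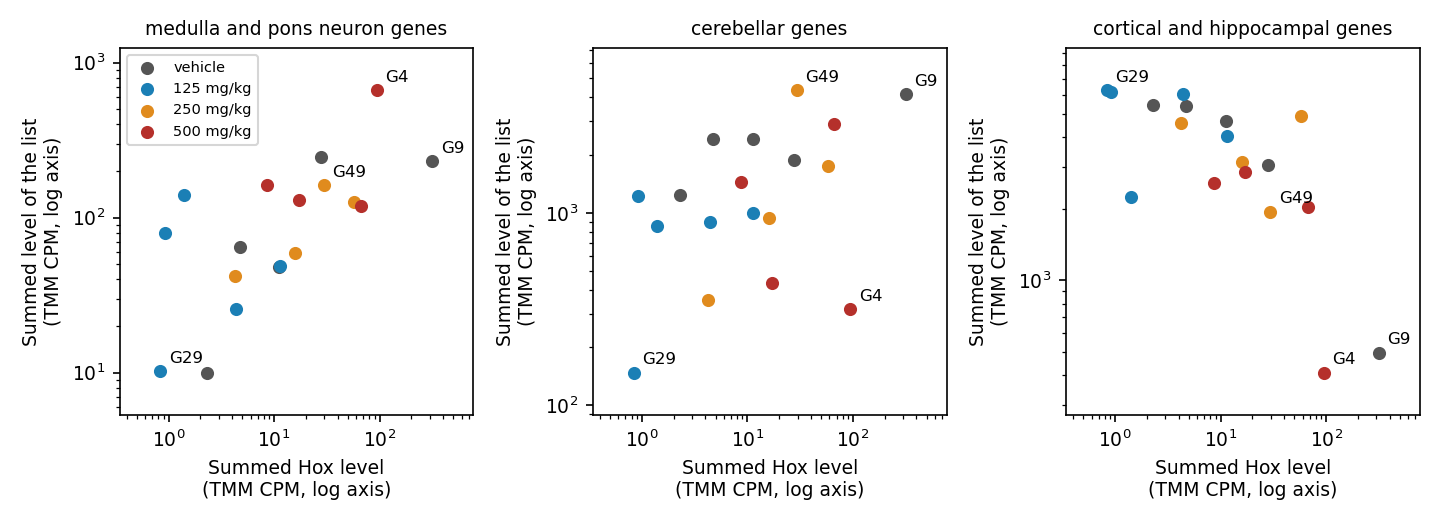
Summed level (CPM, log axes) of the medulla and pons, cerebellar, and cortical and hippocampal gene lists against the summed Hox level in each of 18 mice, coloured by dose group. The hindbrain list goes up and the cortical list down with the Hox sum, while G4 (317.4 CPM) and G9 (4147 CPM) lie far apart on the cerebellar list.

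For the other lists, the midbrain genes held the only calls for dose among all lists looked at, with 2 of 7 tested (0.29% of all genes called). These were Slc6a3, the dopamine transporter (slope 6.30, adjusted p = 0.000729, edgeR), and Ddc, which makes dopamine and serotonin (slope 2.57, adjusted p = 0.0341, edgeR). Without G4 the slope of Ddc was 1.65 with an adjusted p of 0.348 (edgeR). The 9 tested hypothalamic genes all had a positive slope (median 2.91, 0 called), with 7 at an unadjusted p under 0.05 (13.2% of all genes). Their sum had a Pearson correlation of 0.29 with the Hox sum. Summed myelin genes (7 tested, 0 called) had one of 0.16. Their median slope was 0.71, with 7 at an unadjusted p under 0.05 (13.2% of all genes). Without G4, the mouse with the highest myelin sum, the median slope was 0.33 and 1 of 7 had an unadjusted p under 0.05 (edgeR). The share of all genes in that fit was not counted. Choroid plexus genes (7 tested, 0 called) had a Pearson correlation of 0.22 with the Hox sum, or 0.04 without G9. Striatal genes (8 tested, 0 called) had one of -0.35. Meningeal fibroblast genes (6 tested, 0 called) had one of 0.52 and were highest in G9, at 363.4 CPM. Thalamic genes (7 tested, 0 called) had one of -0.32 and cholinergic and motor neuron genes of the brainstem (4 tested, 0 called) one of 0.35. Olfactory bulb genes (3 tested, 0 called) had one of 0.70, about the same as the pons and medulla list (0.69). Genes of red blood cells (1 tested), white blood cells (0 tested) and skeletal muscle (1 tested) held 0 calls, and their sums stayed under 12 CPM in every mouse, with Pearson correlations of 0.084, 0.32 and -0.65 with the Hox sum. The part of these tissues in the Hox values was not tested.

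The genes most like the Hox sum over the 18 mice, by Spearman correlation, were after Slc6a5 Vwa7 and Tdgf1 (0.905 each), Sapcd1 (0.901), Amer1 (0.893), Prph (0.880), an intermediate filament gene of neurons that send axons out of the brain, Tbc1d4 and Foxr2 (0.876 each), Ubash3b (0.874), Ankrd39 (0.872), the row with Entrez identifier 399588 (0.869), Plce1 (0.851), Lgi2 and Mrap2 (0.849 each) and Nmur2 (0.847). Prph ran from 0.743 CPM in G29 to 19.2 in G9. Over all 15851 other genes the median was 0.044, with 5th and 95th percentiles of -0.600 and 0.567. A value of at least 0.8 was reached by 36 genes, and 30 were at -0.8 or lower. All these correlations share the 18 libraries and the differences between them in tissue and depth.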

How the data were processed

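RNA sequencing libraries from brain tissue of 18 mice were analysed from the deposited counts, 1 column per mouse. Per the paper's methods and the submitters' processing notes, the authors made stranded total RNA libraries with removal of ribosomal RNA, sequenced 100 bp paired ends, aligned them to GRCm38 with STAR 2.7.5b, counted reads per gene with featureCounts (raw counts, deposited by Entrez identifier) and tested dose with DESeq2 1.34.0. The strand and overlap settings of the counting are not given in the sources used here.

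Symbols came from RefSeq (GRCm38.p6), which matched 25275 of 27179 rows, and exon lengths from GENCODE M21. Counts were filtered with filterByExpr by dose group (minimum count 10), scaled by TMM and fitted in edgeR 4.0.16 (R 4.3.3) with the quasi-likelihood test, sex as a covariate and Benjamini-Hochberg adjustment over 15863 genes at 0.05. The common biological coefficient of variation was 25.8%. The SE beside an edgeR value was worked back from the test, as the size of that value divided by the square root of the F statistic. Summed levels are TMM CPM, and intervals are Clopper-Pearson exact. Correlations used log2(CPM + 0.5). The steps were tested on simulated data. No 2 libraries of a group agreed within sampling noise (chi-square per degree of freedom 9.67 to 83.4 over 32 pairs). Alternatives were DESeq2 1.42.0, limma-voom 3.58.1, other filters, scalings, samples and covariates. Labels name separate mice as replicates.

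The members and gene lists were chosen with earlier results of these data known. Named genes were all Hox genes past the filter, those at 0 in all mice or above 0 in at least 9, up to 4 members per list by smallest p for dose, and the 15 genes closest to the Hox sum by Spearman correlation; other names were picked after their values were seen.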

Additional observations from a re-analysis of the deposited data

Results flagged for a closer look

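In groups of 4 or 5 mice, 14 Hox measures were looked at (the sum, paralogue groups 6 to 8 and the 12 tested genes), 56 groups in all, for a mouse far from the rest of its group by Dixon's ratio at the 95% level. For normally distributed values chance marks about 1 group in 20. Several of these groups hold few counts and many zeros, so that rate need not hold here, and the measures are not independent of each other. There were 20 such values, and 13 of them belonged to vehicle mouse G9. These were its summed Hox level (316.7 CPM), paralogue groups 6 to 8 (65.1 CPM), Hoxa2 (7.65), Hoxa3 (6.87), Hoxa4 (12.9), Hoxa5 (58.1), Hoxb2 (12.9), Hoxb3 (39.2), Hoxb4 (16.6), Hoxb5 (42.9), Hoxc4 (15.5), Hoxc5 (12.9) and Hoxd4 (9.75). Hoxd3 alone of the tested genes was not among them in this group. Hoxa3 and Hoxb4 were among the tested genes only with G9 included.

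The other 7 values were small. At 125 mg/kg they were G34 for Hoxa3 (0.321 CPM), Hoxc5 (0.964), Hoxd3 (2.09) and Hoxd4 (0.964), G40 for paralogue groups 6 to 8 (0.877) and G25 for Hoxc4 (0.230), each above a group otherwise at or near 0. At 250 mg/kg it was G66 for Hoxb4 (4.18 CPM).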

How the results depend on the processing

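With each alternative changed alone, 0 Hox genes were called in any of the 6 comparisons. The lowest adjusted p ran from 0.142 to 0.9999 over 27 alternatives for the slope, 0.0525 to 0.378 for any difference, and, against vehicle, 0.0764 to 0.608 (125 mg/kg), 0.913 to 1 (250 mg/kg) and 0.196 to 0.879 (500 mg/kg). It ran from 0.248 to 0.969 for sex. The median slope was 2.68 with limma-voom and 2.47 without G4 and G9 (an alternative chosen after seeing the data, like geometric means, the Hox covariate and the block below), and ran from 0.28 (without G4) to 2.52 (without G9) with 1 mouse left out. The log2 ratio of summed levels at 500 mg/kg to vehicle was -3.10 for paralogue groups 6 to 13 alone and ran from -1.23 (without G4) to 2.02 (without G9). Slopes that turned sign were the slope of Hoxa3 at -0.34 and Hoxc5 at -0.27 without the sex covariate, the slope of Hoxa5 at 1.61 (limma-voom), 0.25 (without the 500 mg/kg group) and 2.38 (without G4 and G9), Hoxb4 at 0.078 (DESeq2) and 2.23 (limma-voom), and the slope of Hoxb5 at 2.53 (limma-voom), 0.265 (without the 500 mg/kg group) and 2.57 (without G4 and G9). With 1 mouse left out they ran from -0.23 to 2.20 for Hoxa2, -0.38 to 0.23 for Hoxa3, -1.40 to 2.23 for Hoxa5, -0.46 to 0.00479 for Hoxb4 and -0.49 to 2.99 for Hoxb5. Hoxa3 and Hoxb4 were not tested without G9, the mouse that moved the median slope most. Their ranges therefore lack that fit and cannot be set beside the others. With the number that opens the sample titles as a block the median slope was -2.56, and slopes turned to -2.94 (Hoxa2), -2.21 (Hoxa3), -3.56 (Hoxa4), -1.76 (Hoxb2), -1.33 (Hoxb3), -1.97 (Hoxc4), -2.91 (Hoxc5), -0.18 (Hoxd3) and -2.20 (Hoxd4). In this fit dose differs within a number only among 8 mice. The cause of these moves was not tested. With no filter 29 Hox genes were tested, with a median slope of -0.22. At least 10 counts in every library left no Hox gene to test, and the fit of only the 125 mg/kg and vehicle mice gave no value. The 2 midbrain calls became 1 to 4 with 1 mouse left out and 0 without the 500 mg/kg group or with that block.

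No paired analysis was possible because the labels give the groups no replicate numbers, and the meaning of the number in the titles is not stated. With 8 to 15 Hox counts in each of the 4 lowest libraries, shares by paralogue group could not be read in them, and depth set a floor of 0.279 to 0.740 CPM per gene.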

Other observations

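With the summed Hox level as a further covariate, an alternative chosen after seeing the data, the number of genes called for dose by edgeR went from 46 to 8 of 15863, and all 8 were among the 46. The cause was not tested.

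Over the 500 most variable genes other than Hox genes, the first principal component held 35.7% of the variance, and its Spearman correlation with the summed Hox level had a size of 0.668 over 18 mice.

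Genes of adult cerebellar granule cells, named after their values were seen, parted the mice with the most Hox RNA. Gabra6, a receptor subunit of these cells, was at 353.3 CPM in G9, 282.8 in G79 and 126.9 in G66 but 2.06 in G4, and Cbln3, another granule cell gene, was at 879.9 CPM in G9 and 6.30 in G4. In G29, with no Hox RNA beyond Hoxd1, they were at 0.0929 and 0.557 CPM.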
